A study of Mus musculus with 24 samples.

Results

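The 3 brain angiogenesis inhibitor (BAI) receptors, Adgrb1, Adgrb2 and Adgrb3, and 3 C1q-like proteins that serve as ligands of this family, C1ql1, C1ql2 and C1ql3, were followed in primary mouse cortical neurons. The 6 genes were taken by symbol from the 45792 genes of the table, and all 6 were among the 16777 genes that passed the filter on low counts. The set was chosen by earlier results on these same 24 libraries, over all 6 groups of the study. The levels and fold changes of the 6 genes are therefore given as a description, and "called" marks an edgeR quasi-likelihood adjusted p under 0.05 over all genes tested.

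Neurons came from E16.5 embryos and spent 12 days in culture. They were grouped by genotype and by treatment with brain-derived neurotrophic factor (BDNF), a secreted growth factor that acts on neurons through the receptor kinase TrkB. The 6 groups of 4 libraries were wild type (WT) neurons without BDNF (control), WT with BDNF for 30 min, WT with BDNF for 24 h, and the same 3 conditions in neurons labelled H2BE-KO/mCherry-KI (KO). H2BE is a variant of the core histone H2B. By their label, KO neurons lack it and carry an mCherry knock-in as well, so that every KO against WT difference compares both alterations with neither. Nothing in the labels says whether the 4 libraries of a group came from separate animals, and the spread between them may be technical in part. Polyadenylated RNA was sequenced, and levels are counts per 1e6 counts (CPM), scaled with TMM library factors. WT replicates 1 and 3 held the X-linked Xist at 528 CPM or more and the Y-linked Ddx3y at 0.15 CPM or less. WT replicates 2 and 4 held Xist at 6.23 CPM or less and Ddx3y at 56.6 CPM or more. KO replicates 1 and 3 differed from replicate 2 in the same way. The 4 libraries of a group thus did not all come from 1 animal.

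BAI receptors are adhesion G-protein-coupled receptors with a long extracellular part that carries thrombospondin repeats. Adgrb1 is known for the uptake of apoptotic cells and for dendritic spine formation, in which it signals through ELMO and DOCK proteins. Adgrb3 is the best studied receptor of C1q-like proteins, which are secreted by presynaptic neurons, assemble into multimers and organise excitatory synapses. C1ql1 is known as the climbing fibre ligand of Adgrb3 in the cerebellum, and C1ql2 and C1ql3 as mossy fibre ligands in the hippocampus that also recruit kainate receptors. C1ql3 is in addition expressed in parts of the cortex.

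Adgrb2 and Adgrb3 are the pair of receptors with lower levels in KO than in WT neurons, and the sequence before each of their start sites is shown for that reason. Both windows hold the 250 bases upstream of the RefSeq start (GRCm38.p6), on the coding strand from 5′ to 3′. That of Adgrb2 lies at chr4:129984620-129984869 on the plus strand and that of Adgrb3 at chr1:25829708-25829957 on the minus strand, each directly before the GENCODE start of the gene. Capitals mark matches on either strand to the EGR site (GCGNGGGCG), the CCAAT box (CCAAT) and the GC box (GGGCGG).
Adgrb2: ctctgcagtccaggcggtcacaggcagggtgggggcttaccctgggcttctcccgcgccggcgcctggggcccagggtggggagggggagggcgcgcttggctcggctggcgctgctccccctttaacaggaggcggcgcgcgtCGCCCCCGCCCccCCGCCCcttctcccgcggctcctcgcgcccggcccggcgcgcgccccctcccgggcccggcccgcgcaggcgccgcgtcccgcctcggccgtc
Adgrb3: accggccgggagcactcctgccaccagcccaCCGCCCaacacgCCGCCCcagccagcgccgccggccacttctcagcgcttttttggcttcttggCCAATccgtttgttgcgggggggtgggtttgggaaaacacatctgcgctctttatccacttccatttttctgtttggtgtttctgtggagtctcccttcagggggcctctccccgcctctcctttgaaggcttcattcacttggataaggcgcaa
The Adgrb2 window was 81.6% G and C with 35 CpG dinucleotides, and that of Adgrb3 was 59.2% with 14, against medians of 52.4% and 6 over all 32851 windows. The single EGR match of Adgrb2 overlaps a GC box, and EGR sites occurred in 4.7% of all windows. Both windows held 2 GC boxes, a motif of 32.7% of all windows, and only that of Adgrb3 held a CCAAT box, found in 33.8%. Neither held a cAMP response element (TGACGTCA, 1.55% of all windows), its partial site (TGACG, 17.8%), an AP-1 site (TGANTCA, 6.75%), a CArG box (1.47%) or a TATA box (TATAAA, 12.4%). These matches are a description of the letters.

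Library totals ran from 19780486 to 62135270 counts. Low counts were mostly even numbers: between 68.6% and 85% of all counts from 1 to 20 in a library, and 44 of the 46 nonzero counts of C1ql1 and C1ql2. Low counts thus mostly moved in steps of 2. Counts at the targeted gene, Hist2h2be, were higher in KO (21.2 to 63.1 CPM) than in WT (at most 5.83 CPM) libraries, and the table does not show which bases of the altered locus were read, so this gene separates the genotypes but does not check the loss of H2BE. The library labelled KO 24 h replicate 4 stood apart. Its Hist2h2be level was 21.2 CPM against 50 CPM or more in the other 11 KO libraries, and it held both Xist (145 CPM) and the Y-linked Ddx3y (66.3 CPM), whereas the KO control and KO 30 min libraries that carry the same code in their labels held Xist at 423 and 426 CPM and Ddx3y below 1 CPM. The 3 libraries of that code also had 10.9% to 21.7% mitochondrial counts, and KO 30 min replicate 3 had the lowest total. Headers of control libraries hold a 1 or a 2 after the word control, with no meaning given, and those of BDNF libraries do not. BDNF libraries were placed through the code they share with a control library. Set 2, the codes with control number 2, held 2 WT and 3 KO libraries per condition, so the sets were not balanced between the genotypes. Changes of the receptors and of C1ql3 at 24 h in KO are given with and without replicate 4, and list results without it where a call changes. Values from a fit with the shared code as a block stand beside changes at 24 h where the block changes a call or moves a list's count by over 1.5 times. That fit called more of all 16777 genes tested: 5298 at 24 h in WT, 2834 at 24 h in KO and 299 for the difference at 24 h. Without the block these were 3133, 942 and 6. List counts with the block are to be read beside these totals.

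**Figure D1:**
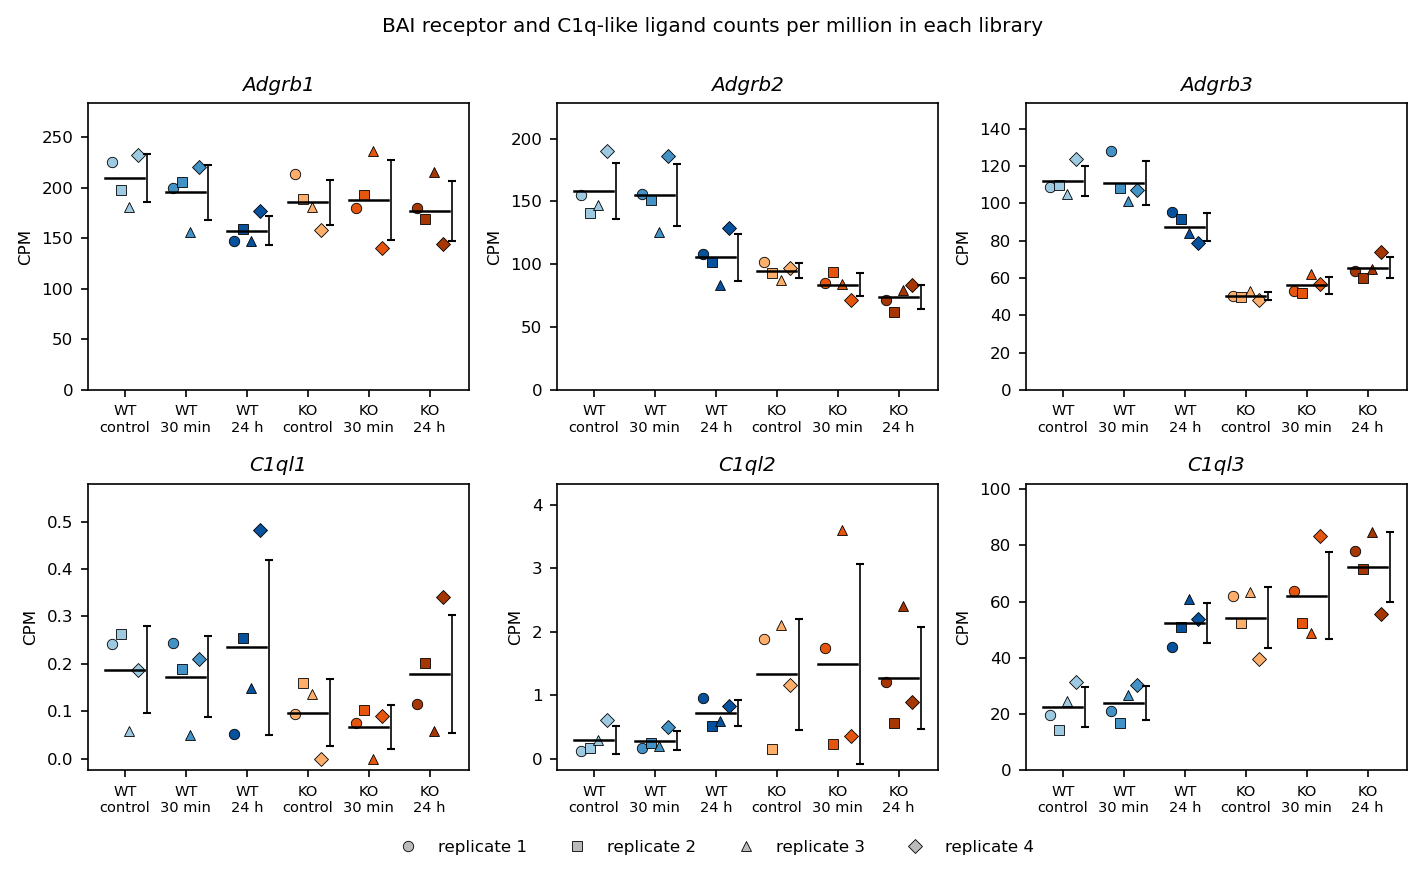
Level of each gene in every library, in CPM on a linear axis, for the 6 groups. Points are libraries, with a symbol for each replicate number, horizontal lines are group means, and bars are 1 SD (n = 4). Adgrb3 separates into WT libraries at 78.8 CPM or more and KO libraries at 73.8 CPM or less, and C1ql3 runs the other way, from 14.4 CPM in WT control to 84.9 CPM in KO 24 h.

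The receptors were abundant and the ligands were not, apart from C1ql3. Per kilobase of exons, WT control neurons held Adgrb1 at 28.9 ± 3.28 (SD, n = 4) and Adgrb2 at 24.4 ± 3.34 CPM per kb, and the libraries of the pair overlapped. C1ql3 stood at 8.87 ± 2.84, Adgrb3 at 6.05 ± 0.429, C1ql2 at 0.15 ± 0.11 and C1ql1 at 0.127 ± 0.0625 CPM per kb. The place of Adgrb3 depends on the length used, since its annotated exons together span 18559 bases and its longest coding transcript 5448 bases. On the latter it stood at 20.6 ± 1.46 CPM per kb, above every C1ql3 library in WT control neurons. In KO control neurons, C1ql3 at 21.4 ± 4.31 CPM per kb was above all Adgrb3 libraries on either length, at 2.71 ± 0.115 per kb of all exons and 9.24 ± 0.393 per kb of the longest transcript.

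Adgrb1 lies on chromosome 15 (mm10, 74516195 to 74589465, plus strand) and encodes BAI1, the engulfment and spine receptor. Its level in WT control libraries was 225, 198, 181 and 232 CPM, and after 24 h of BDNF it was 147, 159, 147 and 177 CPM. All 4 treated libraries were below all 4 controls. The fitted log2 change was -0.41 ± 0.14 (SE), a level 24.6% lower, and it was called narrowly: leaving out single libraries ended the call in 6 of 8 fits. In KO neurons the control libraries held 213, 189, 181 and 158 CPM and the 24 h libraries 180, 169, 215 and 144 CPM. These overlapped, with a log2 change of -0.07 ± 0.14, or 0.02 ± 0.15 without the library labelled KO 24 h replicate 4. At 30 min the WT libraries held 200, 205, 156 and 220 CPM and the KO libraries 180, 193, 236 and 140 CPM. WT and KO libraries of Adgrb1 overlapped in each condition, with log2 differences of -0.17, -0.06 and 0.17 (each ± 0.14) in control, 30 min and 24 h neurons.

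Adgrb2 lies on chromosome 4 (129984870 to 130022633, plus strand) and encodes BAI2, the least studied receptor of the family. WT control libraries held 155, 141, 147 and 190 CPM and WT 24 h libraries 108, 102, 83.7 and 129 CPM. The groups did not overlap, and Adgrb2 fell by a log2 change of -0.58 ± 0.13 (called). KO control libraries held 102, 93.2, 87.7 and 96.6 CPM, all below WT control, at a log2 difference of -0.74 ± 0.13 (called), a level 40% lower. At 30 min the KO libraries held 85.2, 93.7, 84.1 and 71.8 CPM against 156, 151, 126 and 186 CPM in WT (log2 -0.89 ± 0.13, called). At 24 h they held 71.4, 61.6, 79.3 and 83.7 CPM, and the highest of them, replicate 4, reached the lowest WT library. That difference was -0.51 ± 0.13 and was called; it was -0.58 ± 0.14 and called without replicate 4, but not called without KO 24 h replicate 2 (-0.45). Within KO, the 24 h libraries were all below the controls, with a log2 change of -0.36 ± 0.13 that was not called (-0.42 ± 0.14 without replicate 4). With the shared code as a block this change was called (-0.36 ± 0.09); by code it was -0.51, -0.6, -0.15 and -0.21. The difference between the genotypes in the 24 h change, 0.22 ± 0.19, was not called (0.17 ± 0.19 without replicate 4).

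Adgrb3 lies on chromosome 1 (25067476 to 25829707, minus strand) and encodes BAI3, the receptor through which C1q-like ligands act at cerebellar synapses. In control neurons and at 30 min it had the widest gap between the genotypes among the receptors, which was not so at 24 h (-0.41 against -0.51 for Adgrb2). WT control libraries held 109, 110, 105 and 124 CPM and KO control libraries 50.3, 49.9, 53.2 and 48 CPM, without overlap. The log2 difference was -1.16 ± 0.09 (called), so that KO neurons held 44.9% of the WT level; percentages and folds are back-transformed from the fit. At 30 min WT held 128, 108, 101 and 107 CPM and KO 53.2, 51.8, 62.2 and 56.9 CPM (log2 -0.99 ± 0.09, called).
After 24 h of BDNF the genotypes moved in opposite directions. WT libraries held 95.1, 91.5, 84 and 78.8 CPM, all below WT control, a log2 change of -0.36 ± 0.09 (called). KO libraries held 63.6, 60, 64.9 and 73.8 CPM, all above KO control, a log2 change of 0.38 ± 0.09 (called). Replicate 4 was the highest of these, and without it the change was 0.32 ± 0.09 and still called. The gap between genotypes at 24 h was -0.41 ± 0.09 (called), or -0.48 ± 0.09 without replicate 4 (called), and the groups did not overlap. Taken for libraries that share a code in the labels, 24 h minus control was -0.2, -0.27, -0.33 and -0.65 log2 units in WT and 0.34, 0.27, 0.29 and 0.62 in KO. The difference in the 24 h change was 0.74 ± 0.13 log2 units and was called, 1 of 6 genes called in that contrast. It was 0.69 ± 0.12 and called without replicate 4. Of the 16 fits that left out a single library, that fit included, 6 lost the call.

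**Figure D2:**
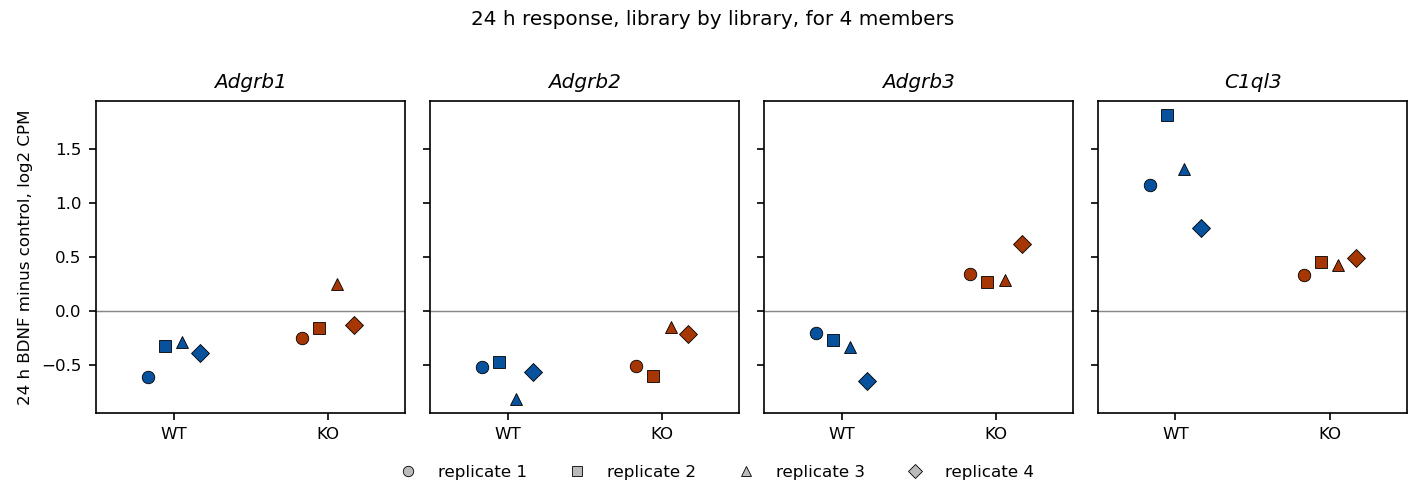
Change in log2 CPM from control to 24 h of BDNF, on the vertical axis, for libraries of the same genotype that share a code in the labels, for the 3 receptors and C1ql3. Points are library pairs (n = 4 per genotype), with a symbol for each replicate number. The KO pair of replicate 4 holds a 24 h library that did not match its control in Xist and Ddx3y. All WT points of Adgrb3 are below 0 and all KO points above it, and for C1ql3 the lowest WT point (0.77) is above the highest KO point (0.49).

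C1ql3 lies on chromosome 2 (13003457 to 13011806, minus strand) and encodes the secreted ligand with the highest counts of the 3. WT control libraries held 19.7, 14.4, 24.5 and 31.4 CPM and WT 24 h libraries 44, 50.9, 60.8 and 53.7 CPM. C1ql3 rose in WT at 24 h without overlap, by a log2 change of 1.22 ± 0.22 (2.33-fold, called). KO control libraries held 61.8, 52.3, 63.4 and 39.6 CPM, all above WT control. The KO against WT difference in control neurons was 1.27 ± 0.22 (2.41-fold, called). With set 2 alone this difference was 0.87 ± 0.26 and the 24 h change in WT was 1.02 ± 0.28, and neither was called. In each WT condition the set 2 libraries, replicates 3 and 4, held more C1ql3 than replicates 1 and 2. Set 2 holds more KO than WT libraries, and its part in the difference was not tested. At 30 min KO held 63.9, 52.4, 48.8 and 83.3 CPM against 21.2, 16.7, 26.9 and 30.4 CPM in WT (log2 1.38 ± 0.22, called). At 24 h the KO libraries held 77.8, 71.4, 84.9 and 55.7 CPM, which overlapped WT through replicate 4. That difference was 0.47 ± 0.22 and was not called, nor was it without replicate 4 (0.57 ± 0.23), but it was called without the 3 KO libraries of that code and KO 30 min replicate 3 (0.58 ± 0.2). Within KO the 24 h change was 0.42 ± 0.22, not called (0.53 ± 0.23 without replicate 4). The difference between the genotypes in the 24 h change was -0.8 ± 0.31 log2 units and was not called (-0.69 ± 0.31 without replicate 4).

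C1ql2 lies on chromosome 1 (120340582 to 120343174, plus strand) and is a mossy fibre ligand. It had 811 counts over the 24 libraries. WT control libraries held 0.12, 0.176, 0.29 and 0.612 CPM and WT 24 h libraries 0.956, 0.51, 0.601 and 0.834 CPM, an overlapping pair of groups with a log2 change of 1.25 ± 0.76 (not called; 1.41 ± 0.49 and called with the shared code as a block). WT 30 min libraries, at 0.177, 0.252, 0.197 and 0.504 CPM, lay in the range of WT control. KO libraries differed widely among themselves. In KO control they held 1.89, 0.159, 2.11 and 1.16 CPM, at 30 min 1.75, 0.237, 3.61 and 0.361 CPM, and at 24 h 1.21, 0.564, 2.41 and 0.89 CPM, so that replicate 3 was the highest and replicate 2 the lowest in all 3 conditions. The KO against WT difference was 2.11 ± 0.77 in control (not called), 2.35 ± 0.77 at 30 min (called) and 0.79 ± 0.72 at 24 h (not called; 0.92 ± 0.77 without replicate 4). The groups overlapped at all 3 times, and the call at 30 min was lost in 5 of 8 fits without a single library, with values of 1.49 to 2.75, and without the libraries of KO replicate 4 and KO 30 min replicate 3 (1.8 ± 0.81).

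C1ql1 lies on chromosome 11 (102939264 to 102946688, minus strand) and encodes the climbing fibre ligand. It was close to the limit of detection, with 173 counts in all and no library above 0.483 CPM. WT control libraries held 0.241, 0.264, 0.058 and 0.188 CPM and KO control libraries 0.0944, 0.159, 0.136 and 0 CPM. KO control replicate 4 and KO 30 min replicate 3 had no count, which allows up to 0.144 and 0.155 CPM at 3 counts of counting error, and more given the even steps of the counts. WT 30 min libraries held 0.243, 0.189, 0.0494 and 0.21 CPM and KO 30 min libraries 0.0746, 0.102, 0 and 0.0904 CPM. After 24 h WT held 0.0531, 0.255, 0.15 and 0.483 CPM and KO 0.115, 0.201, 0.0575 and 0.342 CPM. All pairs of groups compared overlapped. No contrast of C1ql1 was called, and with SEs of 0.7 to 0.82 for the simple contrasts, differences as large as the -1.22 of KO against WT at 30 min were not detectable at this depth. The gene Gm26668 lies on the opposite strand and had 102 counts.

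Across the 6 genes, 30 min of BDNF called no member in either genotype, with 0 at an unadjusted p under 0.05 and 0 by DESeq2, where 0.37% (WT) and 0.125% (KO) of all genes tested were called. The difference between the genotypes at 30 min called 0 members as well (0 at an unadjusted p under 0.05 and 0 by DESeq2; 0.0477% of all genes). At 24 h in WT 4 members were called (18.7% of all genes), 1 higher (9.55%) and 3 lower (9.13%). In KO 1 member, Adgrb3, was called at 24 h (5.61%; higher, 2.91%). KO against WT called 3 members in control neurons (21.4%; 1 higher, 11.3%; 2 lower, 10.1%), 4 at 30 min (28.4%; 2 higher, 14.6%; 2 lower, 13.8%) and 2 at 24 h (13.3%; both lower, 6.16%). The difference in the 24 h change called Adgrb3 (0.0358% of all genes; higher, 0.0238%). Groups did not overlap for 0 members at 30 min (3.19% of all genes in WT, 1.69% in KO), for 4 at 24 h in WT (30.7%) and 2 at 24 h in KO (12.8%). Between genotypes this held for 3 members in control (26.5%), 3 at 30 min (25.3%) and 1 at 24 h (18.9%). The contrasts share their control libraries, and nothing is read from these counts since the same contrasts were known when the genes were chosen. The median log2 change of the 6 genes was -0.02 at 24 h in WT and -0.46 for KO against WT in control neurons, beside -0.01 and 0.03 for all genes.

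**Figure D3:**
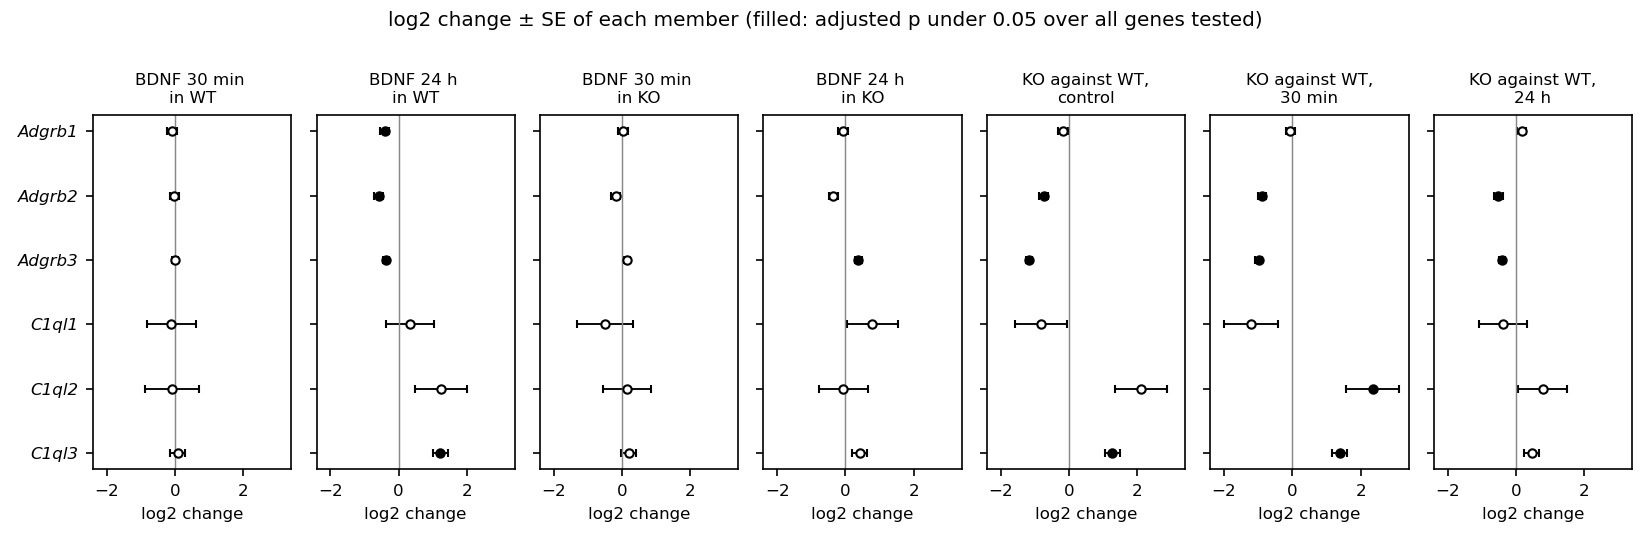
Fitted log2 change of each gene in 7 contrasts on a common horizontal axis; points are estimates, bars are SE, and filled points are called. At 24 h in WT the 3 receptors lie left of 0 (-0.36 to -0.58) and C1ql3 right of it (1.22), and both panels of BDNF at 30 min hold no filled point.

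Counts of ligand and receptor can also be set against each other within a library, which needs no scaling between libraries. For every 100 Adgrb3 counts, WT control libraries held 18, 13.1, 23.3 and 25.4 C1ql3 counts (20 ± 5.53, SD, n = 4) and WT 24 h libraries 46.3, 55.6, 72.4 and 68.1 (60.6 ± 11.9). KO control libraries held 123, 105, 119 and 82.4 (107 ± 18.3), and KO 24 h libraries 122, 119, 131 and 75.5 (112 ± 24.8, or 124 ± 6.24 without replicate 4). At 30 min the WT libraries held 16.6, 15.5, 26.6 and 28.3 and the KO libraries 120, 101, 78.5 and 146. All WT 24 h libraries were thus above WT control and below every KO library. Of the counts of the 3 receptors together, Adgrb3 took 23.5% ± 1.08 in WT control and 25.1% ± 3.1 in WT 24 h libraries, which overlapped. It took 15.3% ± 1.17 in KO control and 20.8% ± 2.67 in KO 24 h libraries (19.6% ± 1.34 without replicate 4). The receptor share of Adgrb1 was 43.6% ± 1.88 in WT control and 55.9% ± 2.62 in KO control libraries.

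The gene beside C1ql3 moved with it. Pter, which encodes a phosphotriesterase-related protein, lies on the opposite strand of chromosome 2 (12924041 to 13003455), and the GENCODE models of both end 1 base apart. Pter was the gene most like C1ql3 over the 24 libraries (Pearson r = 0.971 of log2 CPM, a description over libraries that share group and depth). It rose at 24 h in WT by a log2 change of 1.26 ± 0.3 (edgeR adjusted p = 0.00447) and was higher in KO than in WT control neurons by 1.33 ± 0.3 (adjusted p = 0.00258). In KO its change at 24 h was 0.31 ± 0.29 (adjusted p = 0.633). Libraries held 138 to 224 Pter counts per 100 C1ql3 counts. No source used here gives the strand setting of the counting, and reads that run past the end of one of these genes cannot be told apart from reads of the other. Rsu1, on the other side of C1ql3 at a distance of 65014 bases, was not called in any of the contrasts examined (log2 -0.02 ± 0.08 at 24 h in WT and 0.06 ± 0.08 for KO against WT control).

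**Figure D4:**
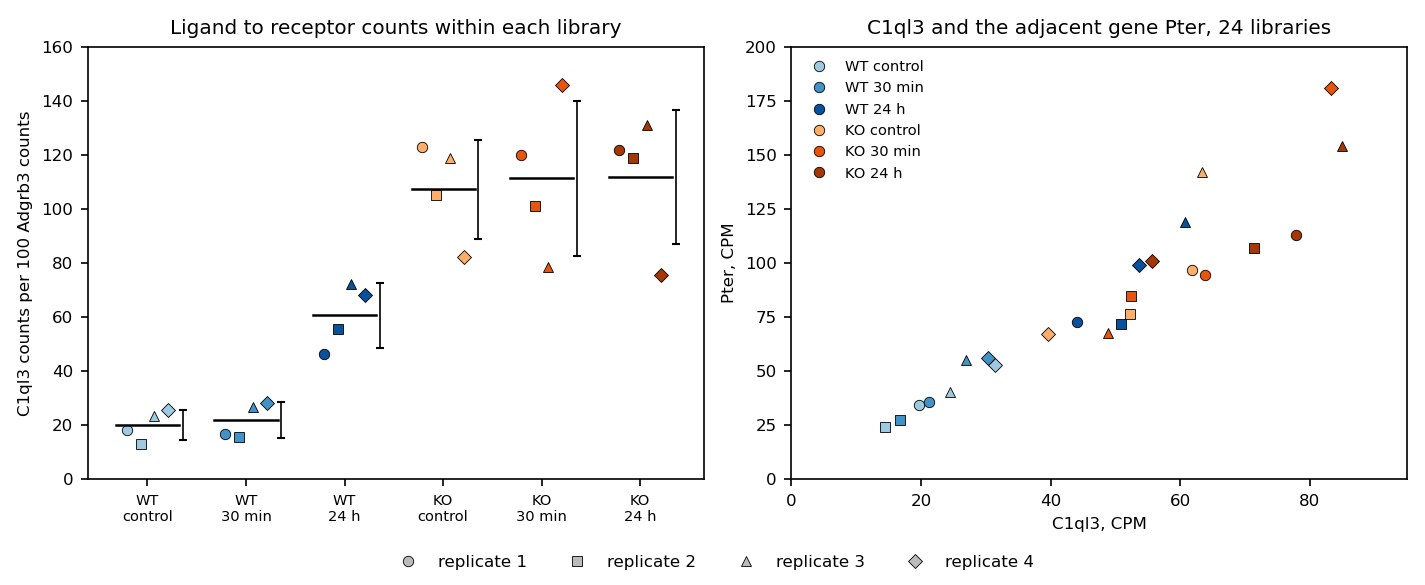
Left, C1ql3 counts per 100 Adgrb3 counts in each library, with group means and SD (n = 4). Right, level of Pter against that of C1ql3, in CPM, for the 24 libraries. The left panel steps from 13.1 to 25.4 in WT control to 46.3 to 72.4 in WT 24 h and at least 75.5 in all KO libraries, and in the right panel Pter is higher in libraries with more C1ql3, which spans 14.4 to 84.9 CPM.

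Other genes with a pattern close to a member were taken as the 3 with the highest Pearson r of log2 CPM over the 24 libraries, among genes with a mean of at least 1 CPM. For C1ql3 they were Pter, Tacr3 (r = 0.951), which encodes the neurokinin B receptor, and Nceh1 (0.947). Tacr3 ran from a mean of 2.11 CPM in WT control to 9.26 in WT 24 h and 7.78 in KO control. For Adgrb3 they were Ankrd27 (0.948), Scd2 (0.948), a stearoyl-CoA desaturase, and Tshz3 (0.944), a zinc finger transcription factor. Scd2 had means of 1270 CPM in WT control and 517 CPM in KO control. For Adgrb2 they were Sez6l (0.961), Neurl1a (0.956) and Jph4 (0.955), a junctophilin. Among the members themselves, r of C1ql3 with Adgrb3 was -0.76 over the 24 libraries, -0.75 within WT and 0.41 within KO, and with Adgrb2 it was -0.83, -0.63 and -0.66. The genes named over 24 libraries were mostly not those most like a member within 1 genotype. Of the 3 named for each of Adgrb3, Adgrb1 and C1ql2, 0 were among the 3 most like it within the 12 WT or within the 12 KO libraries. For C1ql3, 2 of 3 (Pter and Tacr3) were among them within WT and 0 within KO. For Adgrb2 these counts were 0 within WT and 2 within KO, and for C1ql1 0 and 1. Likeness was lower for Adgrb1 (Wnt2b, 0.847), C1ql2 (Ero1lb, 0.831) and C1ql1 (Zic1, 0.78).

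Genes that act with the BAI receptors behaved unequally. Of 18 genes listed as BAI partners and effectors, all tested, 2 rose and 4 fell at 24 h in WT (median log2 -0.03; -0.01 for all genes). Dlg4, which encodes the postsynaptic scaffold PSD-95, rose by 0.4 ± 0.08 (edgeR adjusted p = 0.000965), and the ubiquitin ligase Mdm2 rose by 0.28 ± 0.09 (adjusted p = 0.0407). Elmo1, the engulfment adaptor of Adgrb1, fell by a log2 change of -0.73 ± 0.14 (adjusted p = 0.000514), from 223 ± 27.5 to 135 ± 17.6 CPM (SD, n = 4). Baiap3 (-1.3 ± 0.43, adjusted p = 0.0366), the Nogo receptor Rtn4r (-0.54 ± 0.13, adjusted p = 0.00501) and the scaffold Magi1 (-0.51 ± 0.17, adjusted p = 0.0373) fell as well. In KO edgeR called 0 of 18 at 24 h (5 at an unadjusted p under 0.05; 1 higher and 2 lower with the shared code as a block). It called 0 of 18 for the difference in the 24 h change between genotypes (2 at an unadjusted p under 0.05). With the block edgeR called that difference for Elmo1 (0.76 ± 0.15, adjusted p = 0.0116) and Rtn4r (0.6 ± 0.14, adjusted p = 0.0398), and without KO 24 h replicate 4 for Elmo1 (0.94 ± 0.15, adjusted p = 0.0212). For KO against WT in control neurons 1 was higher and 4 were lower (median 0.07; 0.03 for all genes). Rtn4rl1, a Nogo receptor homologue, was higher (0.44 ± 0.11, adjusted p = 0.00581), and Baiap3 (-1.24 ± 0.43), the actin regulator Baiap2 (-0.81 ± 0.16, adjusted p = 0.000583), Rtn4r (-0.66 ± 0.13) and Nlgn1 (-0.34 ± 0.1), which encodes neuroligin 1, were lower. At 24 h Elmo1 was higher in KO than in WT by 1.03 ± 0.14 (adjusted p = 6.23e-05), at 276 ± 63.2 against 135 ± 17.6 CPM, and by 1.17 ± 0.11 without replicate 4.

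The list of C1q-like and cerebellin relatives with their receptors and partners had 15 genes, of which 14 were tested. After 24 h of BDNF 1 rose and 2 fell in WT (median log2 -0.05; -0.01 for all genes). Nptx1, a neuronal pentraxin, rose by 1.78 ± 0.36 (edgeR adjusted p = 0.00113), and the kainate receptor subunit Grik2 (-0.55 ± 0.14, adjusted p = 0.00808) was among those that fell. In KO 2 rose and 0 fell at 24 h: Nptx1 by 1.8 ± 0.36 (adjusted p = 0.00437), close to its WT change, and the kainate receptor subunit Grik4 by 0.6 ± 0.17 (adjusted p = 0.0387). Both were called without replicate 4 as well. With the shared code as a block 3 rose and 4 fell in WT, and 3 rose and 1 fell in KO. In control neurons 1 was higher and 3 were lower in KO than in WT (median -0.19; 0.03 for all genes). Grik2 was higher (0.46 ± 0.14, adjusted p = 0.0222), and the cerebellin Cbln1 (-1.16 ± 0.31, adjusted p = 0.00993) was among those that were lower. For the difference in the 24 h change edgeR called 0 of the 14 (1 at an unadjusted p under 0.05).

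Among the other adhesion G-protein-coupled receptors 20 of 27 measured genes were tested. In WT 0 rose and 3 fell at 24 h: Adgrg1 (-0.9 ± 0.14, edgeR adjusted p = 6.48e-05), Adgra3 (-0.74 ± 0.15, adjusted p = 0.00106) and the latrophilin Adgrl1 (-0.25 ± 0.08, adjusted p = 0.0211), with a list median of 0.06 (all genes, -0.01). In KO 1 of 20 was called at 24 h, Adgrg1 (-0.57 ± 0.14, adjusted p = 0.0138), and without replicate 4 Adgra3 was called too (-0.61 ± 0.15, adjusted p = 0.0188). With the shared code as a block 1 rose and 5 fell in WT, and 2 rose and 2 fell in KO. In control neurons 5 of 20 were lower and 0 higher in KO than in WT (median -0.1; 0.03 for all genes). The 4 with the largest difference were Adgrg2 (-1.51 ± 0.53, adjusted p = 0.0437), the latrophilin Adgrl2 (-0.54 ± 0.13, adjusted p = 0.00469), Adgra3 (-0.45 ± 0.15, adjusted p = 0.0342) and Celsr3 (-0.38 ± 0.13, adjusted p = 0.031), a cadherin-type receptor of axon guidance. For the difference in the 24 h change, in which Adgrb3 was called, edgeR called 0 of the 20 (1 at an unadjusted p under 0.05). It called 6 of all 16777 genes there (0.0358%), so 0 of 20 does not set Adgrb3 apart from this list. With the block 299 of all genes were called, and of the 20 only Adgrl2 (0.41 ± 0.08, edgeR adjusted p = 0.0155). In that fit Adgrl2 also rose at 24 h in KO (0.32 ± 0.06, called). Of 12 other C1q-domain genes tested, 2 fell at 24 h in WT, Emilin2 (-2.39 ± 0.44, adjusted p = 0.000486) and C1qtnf1 (-1.36 ± 0.46, adjusted p = 0.0425).

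Of 29 organisers of excitatory synapses tested, 0 rose and 3 fell at 24 h in WT (median log2 -0.18; -0.01 for all genes). Cadm3 fell by a log2 change of -0.95 ± 0.11 (edgeR adjusted p = 1.89e-06), the teneurin Tenm2 of -0.81 ± 0.14 (adjusted p = 0.000248) and the receptor phosphatase Ptprd of -0.51 ± 0.11 (adjusted p = 0.00198). In KO 4 fell at 24 h, those 3 and Lrrtm2 (-0.43 ± 0.12, adjusted p = 0.0316), and without replicate 4 Tenm2 was no longer called (-0.44 ± 0.15, adjusted p = 0.0935). With the shared code as a block 2 rose and 10 fell in WT, and 0 rose and 6 fell in KO (5298 and 2834 of all 16777 genes called in that fit). In control neurons 4 were higher and 7 lower in KO than in WT. Lrrtm3 (-1.3 ± 0.2, adjusted p = 8.7e-05) and Cadm1 (-0.82 ± 0.13, adjusted p = 0.000119) were lower, and Slitrk4 (0.84 ± 0.18, adjusted p = 0.00199) and Flrt3 (0.79 ± 0.13, adjusted p = 0.000149) higher. The treatment itself was visible in both genotypes: 7 of 10 reference genes of the BDNF response rose at 30 min in each, and 6 of 10 at 24 h in each. The size of the 30 min response was not the same, with a list median of 4.16 in WT and 2.12 in KO; at 30 min 2 of the 10 were higher and 6 lower in KO than in WT. The difference in the 30 min change was called for Fosb (-3.36 ± 0.43, adjusted p = 0.000547) and Egr2 (-2.61 ± 0.49, adjusted p = 0.0442). In control neurons 6 of these 10 were higher in KO than in WT and 0 lower. Among them were Fosb (2.3 ± 0.32, edgeR adjusted p = 2.52e-05) and Bdnf itself (2.01 ± 0.31, adjusted p = 8.53e-05). The other 4, Arc, Egr1, Egr2 and Homer1, were not called there. Their KO control means were 5.98, 24.9, 2.92 and 88.8 CPM, against 4.87, 35, 2.22 and 97.9 CPM in WT control. Ntrk2, which encodes TrkB, fell at 24 h in WT by a log2 change of -0.75 ± 0.14 (adjusted p = 0.000676).

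The cultures also differed in cell type markers, and in bulk RNA fewer cells of a type cannot be told apart from less RNA per cell. All 6 deep-layer neuron markers were lower in KO than in WT control neurons (median log2 -1.48), with a summed level of 192 to 330 CPM against 499 to 816 CPM. Of 6 excitatory neuron markers 3 were lower and 0 higher (summed 677 to 840 against 940 to 1170 CPM). Of 7 inhibitory neuron markers 4 were higher and 0 lower (summed 2220 to 3060 against 1040 to 2110 CPM). Of 8 astrocyte markers 2 were lower and 0 higher (summed 183 to 322 against 453 to 628 CPM). Most of the astrocyte sum was Slc1a2, with a median of 334 CPM over all libraries, and the next highest, Slc1a3, had a median of 19.3 CPM. Of 5 markers of all neurons 2 were lower and 0 higher (summed 5290 to 5660 against 5690 to 5770 CPM). Of 6 upper-layer markers 1 was higher and 1 lower, and of 5 striatal markers 2 were lower and 0 higher. Of 7 tested markers of oligodendrocytes and their precursors 1 was lower and 0 higher. Of 5 tested microglial markers 1 was higher and 0 lower, and all 7 listed summed to at most 6.16 CPM in control neurons. The endothelial, fibroblast and mural, and hippocampal lists had 0 calls. No list had a marker at 0 in all libraries. The part of these markers in the KO against WT differences of Adgrb2, Adgrb3, C1ql2 and C1ql3 was not tested. Between control and 24 h in WT, where the receptors fell, 1 of 6 excitatory markers was higher and 2 were lower (summed 571 to 831 CPM at 24 h), 2 of 5 markers of all neurons were lower (5080 to 5620 CPM) and 2 of 6 upper-layer markers were lower (463 to 522 CPM, from 539 to 616). Of 7 tested markers of oligodendrocytes and their precursors 1 was higher (all 8 listed summed to 56.7 to 89.9 CPM, from 35.5 to 45). The deep-layer, inhibitory and astrocyte lists had 0 calls there by edgeR without a block. With the shared code as a block 1 excitatory marker was higher and 5 were lower, 4 upper-layer markers were lower, 1 marker of all neurons was higher and 3 were lower, 2 of 7 inhibitory markers were higher, and 1 of 8 astrocyte and 1 of 6 deep-layer markers were lower. In that fit 1 striatal marker was higher and 1 lower, and 1 fibroblast and mural marker was lower. Between control and 24 h in KO, where Adgrb3 rose, 1 of 6 excitatory markers was higher and 1 lower, 1 of 6 upper-layer markers was lower and 1 of 5 striatal markers was higher. Without replicate 4, 0 excitatory markers were higher and 2 lower, 1 upper-layer marker was lower and 0 striatal markers were called. With the shared code as a block, 1 excitatory marker was higher and 3 were lower in KO, 3 upper-layer markers were lower and 2 striatal markers were higher. That fit also called 1 marker of all neurons higher and 2 lower, and 1 of 7 inhibitory markers lower. Deep-layer markers had 0 calls of 6, and their sum was 218 to 257 CPM in 3 of the libraries and 503 CPM in the library labelled KO 24 h replicate 4. That library also had the highest astrocyte sum of its group (474 CPM against 207 to 251) and the lowest inhibitory sum (1620 CPM against 2460 to 3240). The part of these markers in the 24 h changes was not tested.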

How the data were processed

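The authors deposited whole-number counts of reads per gene for 24 libraries, 4 per group, with no normalisation, per the file headers and values. Per the submitters' processing notes, STAR 2.7.9a, DESeq2 1.38.3, limma 3.54.2 and edgeR 3.40.2 were used with mm10, and per the labels' protocols a stranded mRNA kit was used. The program that counted reads, whether it used strand, and its gene annotation were not given in the sources used here. Symbols and coordinates came from GENCODE M21 by identifier without version (45229 of 45792 genes). Tests used edgeR 4.0.16 under R 4.3.3 (filterByExpr, minimum count 10 and total 15; TMM factors 0.824 to 1.07; quasi-likelihood, 1 mean per group, 18 residual degrees of freedom; Benjamini-Hochberg over 16777 genes; threshold 0.05). SE is the absolute log2 change over the square root of F. Log2 CPM used a prior count of 2. Limits for a count of 0 cover counting error only. The tool was tested on simulated data drawn independently for each library. These data held no shared code and no library that stands apart, so the test does not bear on calls that depend on either. Promoter windows came from RefSeq (GRCm38.p6), with entries for 4 of 6 members (Adgrb2, Adgrb3, C1ql2, C1ql3).

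The members and gene lists were chosen with earlier results of these data known. Named genes were the 6 members, Hist2h2be, Bdnf and Ntrk2, up to 4 called genes of a list with the largest change per contrast, and the 3 genes most correlated with each member. Dlg4, Mdm2, Nlgn1, the genes beside C1ql3 and the sex-linked genes were chosen after their values were seen. Libraries of a genotype share a code in their labels whose meaning is not stated. Deviations from the group mean of libraries with the same code correlated over genes by 0.152 to 0.4 in the 8 pairs of control and 24 h libraries, so the code was taken to pair these; 2 of all 24 pairs, both with KO 30 min replicate 3, were under 0.1. The code was a block in an alternative fit, and values come from the fit without it unless a block is named. No pair of libraries was identical. Alternatives were other scaling factors, no filter, DESeq2 1.42.0, the groups compared alone, left-out libraries, libraries of set 2 alone, and mitochondrial genes removed. Some called genes of the list of C1q-like and cerebellin relatives are not reported here by name.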

Additional observations from a re-analysis of the deposited data

Results flagged for a closer look

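The 24 h response of Adgrb3 differed between the genotypes: the KO change minus the WT change was 0.74 log2 units (SE 0.13), and every library pair that shares a code moved down in WT and up in KO. The largest KO change (0.62) came from the pair with the library labelled KO 24 h replicate 4. That library did not match its control in Xist and Ddx3y, so this pair may not be matched. The level of Adgrb3 in control neurons differed between the genotypes as well, and the 24 h values (87.3 ± 7.32 CPM in WT, 65.6 ± 5.85 CPM in KO, SD, n = 4) lay between the WT and KO control means of 112 and 50.3 CPM. In the 36 groups of 4 libraries, no member had a library far from the other 3 by Dixon's ratio (0 above its 95% critical value, where chance gives about 1 group in 20).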

How the results depend on the processing

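Of 54 member changes, 15 were called. Over 269 alternative values of these, 235 kept their side of the threshold, 34 lost the call and 0 turned direction; of the 39 not called, 14 values gained a call and 56 turned direction. The counts of called members moved as follows. With libraries of set 2 alone (2 WT and 3 KO per condition), 0 members were called at 24 h in WT, at 24 h in KO, for KO against WT at 24 h and for the difference at 24 h. Adgrb3 was then -0.5 ± 0.14 in WT, 0.4 ± 0.12 in KO, and C1ql3 for KO against WT control was 0.87 ± 0.26, not called. With library totals alone the difference at 24 h called 0. Leaving out single libraries gave 1 to 2 members for KO against WT at 24 h and 0 to 1 for the difference at 24 h. With the replicate block by shared code, 2 members were called at 24 h in KO, Adgrb2 among them (-0.36 ± 0.09), and C1ql2 was called at 24 h in WT (1.41 ± 0.49); the difference of Adgrb3 was then 0.74 ± 0.11, and no other call changed. List counts with the block and without KO 24 h replicate 4 were added after seeing the data. A further fit, chosen after seeing the data, used that block and left out the 3 KO libraries numbered 4 and KO 30 min replicate 3. In it 3 members were called at 24 h in KO and 3 for the difference at 24 h, with C1ql3 at -0.85 ± 0.15. Of all genes it called 4442 and 1533 in these 2 contrasts, against 942 and 6 with all libraries and no block. Without those libraries and with no block, C1ql3 was called for KO against WT at 24 h (0.58 ± 0.2), as it was with the groups compared alone (0.47 ± 0.14). The replicate number as a block across genotypes, which share only a number, gave C1ql2 a call in control neurons (1.86 ± 0.68), as did DESeq2 (2.12 ± 0.73).

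Counts over all genes moved by more than 1.5 times in several fits. With the code block, calls went from 62 to 98 (30 min, WT), 3133 to 5298 (24 h, WT), 942 to 2834 (24 h, KO), 8 to 30 and 6 to 299 (differences at 30 min and 24 h). With the groups compared alone they were 4945 (24 h, WT), 552 (24 h, KO), 2688 (KO against WT, 30 min) and 4 (difference at 30 min). DESeq2 called 1509 (24 h, KO), 24 and 61 (differences), library totals 5 and 3, and no filter 15 and 12. Without the 3 KO libraries numbered 4 and KO 30 min replicate 3, 5564 genes were called at 24 h in WT, 1641 at 24 h in KO, 5435 for KO against WT at 24 h and 111 for the difference at 24 h. With the code block added to that, the counts were 214 and 7981 (30 min and 24 h, WT), 4442 (24 h, KO), 39 and 1533 (differences). Leaving out single libraries gave 482 to 985 genes at 24 h in KO, 1216 to 3138 (2223 with all) for KO against WT at 24 h, and 4 to 13 and 0 to 11 for the differences. Set 2 alone called 25 and 10 at 30 min and 237 and 19 at 24 h in WT and KO, 599, 957 and 11 for KO against WT, and 0 and 0 for the differences.

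Direction turned only for changes that were not called. Without the 3 KO libraries numbered 4 and KO 30 min replicate 3, the 30 min change in KO was -0.06 for Adgrb1, -0.45 for C1ql2 and -0.02 for C1ql3, the 24 h change in KO was -0.03 for C1ql1 and 0.04 for C1ql2, and the differences were -0.35 for C1ql2 and -0.1 for C1ql3 at 30 min and -0.35 for C1ql1 at 24 h. With the code block added these were -0.03 (Adgrb1, 30 min), -0.04 (C1ql1, 24 h), 0.33 (C1ql2, 24 h), -0.05 (C1ql3, difference at 30 min) and -0.36 (C1ql1, difference at 24 h). With the code block alone, the 30 min change in KO was 0 for Adgrb1 and -0.04 for C1ql2, the 24 h change of C1ql2 was 0.18, and its difference at 30 min was -0.02. With libraries of set 2 alone, C1ql1 was 0.06 at 30 min in WT and -0.39 for the difference at 24 h, and at 24 h in KO Adgrb1 was 0.01 and C1ql2 0.19. Leaving out single libraries gave ranges across 0. For the 30 min change in WT these were -0.14 to 0.07 for Adgrb2, -0.09 to 0.04 for Adgrb3, -0.4 to 0.18 for C1ql1, -0.53 to 0.53 for C1ql2 and -0.08 to 0.29 for C1ql3. For the 24 h change in WT this was -0.29 to 0.64 for C1ql1. For the 30 min change in KO these were -0.11 to 0.13 for Adgrb1 and -0.71 to 0.51 for C1ql2. For the 24 h change in KO these were -0.17 to 0.02 for Adgrb1 and -0.56 to 0.26 for C1ql2, and 0.27 to 1.12 for C1ql1, which did not cross 0. For KO against WT at 30 min this was -0.19 to 0.04 for Adgrb1. For KO against WT at 24 h this was -0.89 to 0.23 for C1ql1. For the difference at 30 min these were -0.02 to 0.23 for Adgrb1, -0.61 to 0.67 for C1ql2 and -0.09 to 0.28 for C1ql3. For the difference at 24 h this was -0.05 to 1.07 for C1ql1. The cause of these turns was not tested; the SE of C1ql1 and C1ql2, near 0.7 or above, limits what their depth can show.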
